A study of Mus musculus with 6 samples.

Results

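Wnt, BMP and TGF-beta signalling genes were followed in the neocortex of null mutant mouse embryos, which the submitters call synaptically silent. The members were chosen by name from the annotation of the array, as probes with a single gene symbol beginning with Wnt, Fzd, Sfrp, Dkk, Bmp, Tgfb, Smad, Tcf7, Lef, Axin, Dvl or Gdf, together with Ctnnb1, Nog, Chrd, Acvr1, Acvr2a and Acvr2b. This gave 72 of the 6856 probes of the table, 1 for each of 72 genes, of 6041 genes named in all. The arrays compared total RNA from the neocortex of 6 null mutant embryos at embryonic day 14 with a pool of RNA from 6 wild-type animals of the same day and region. Mutants and wild types shared the C57BL/6 background. Each array carried 2 colours, 1 mutant against the pool. The mutant was labelled with cy3 on replicates 1, 2 and 3 and with cy5 on replicates 4, 5 and 6.

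Wnt ligands bind Frizzled receptors, and Dishevelled proteins (Dvl) then hold back the Axin complex that destroys beta-catenin, so that beta-catenin can act with Tcf and Lef factors in the nucleus. BMP, Gdf and TGF-beta ligands bind paired kinase receptors that phosphorylate Smads, which enter the nucleus together with Smad4. In the embryonic forebrain the cortical hem is a known source of Wnt and BMP ligands, and both pathways are known to act on the patterning and division of cortical progenitors.

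The pool counts as 1 control sample, so each test asks whether the log ratio differs from 0, and variation among wild-type animals does not enter it. Each value is a log2 ratio of both channels, with base 2 assumed. The labels do not say whether the deposited ratio had been turned for the dye, so its direction is not settled. Signs are given as deposited throughout, and "positive" means more RNA in the mutant only if every array was deposited as mutant over pool. The other reading, with replicates 1 to 3 turned, is given beside the main results. In tissue RNA, fewer cells of a type and less RNA per cell cannot be told apart.

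Of the 72 members, 14 had no value on any array, 6 had a value on 1 array and 8 on 2 or 3 arrays. The remaining 44 had at least 2 values in each dye orientation and were tested, 34 of them with a value on all 6 arrays. The share without any value was 19.4% among the members and 11.3% among all probes, and the reason for a missing value was not given in the sources used here. With ratios alone, dim probes could not be told from bright ones.

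Replicates 3 and 4 stood apart from the other arrays before any gene was considered. Their values had a standard deviation of 1.09 and 0.62 over all probes, against 0.35 to 0.52 on the other 4 arrays. Although the mutant carried cy3 on 1 and cy5 on the other, they correlated at 0.59 over 3875 probes, and both correlated below 0 with each of the other 4 arrays, from -0.37 to -0.08. Of the 44 tested members 25, or 56.8%, had their largest value in size on replicate 3, against 51.3% of all tested probes, and 8, or 18.2%, on replicate 4, against 18% of all tested probes. Replicates 3 and 4 lay on the same side of 0 for 31 of the 34 members with a value on both, or 91.2%, against 78.5% of all such probes, a difference that was not tested. Estimates were therefore also made without these arrays for the 41 members that kept enough values, which leaves out Bmp6, Fzd6 and Tgfb1i1.

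**Figure D1:**
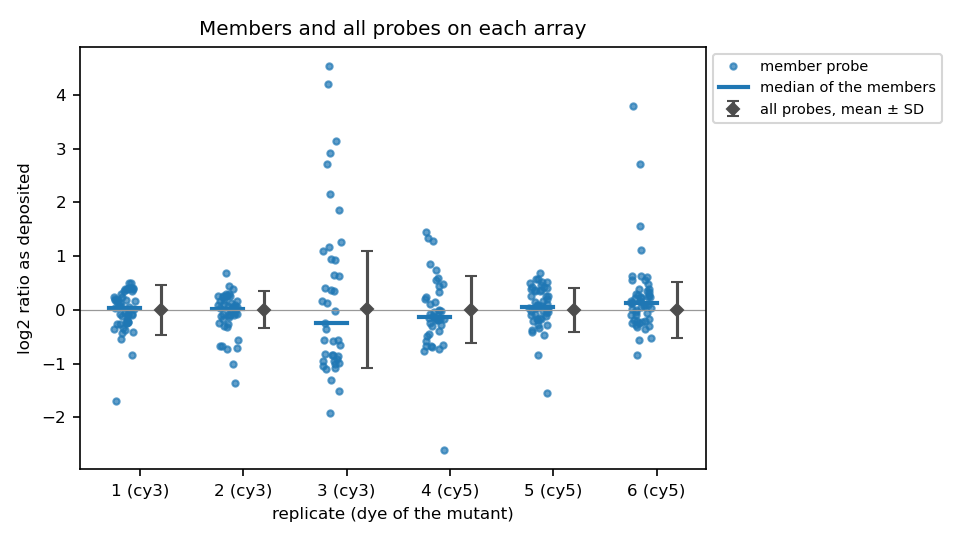
Log2 ratios as deposited of all member probes on each of the 6 arrays (blue points; bar, median of the members) beside the mean ± SD of all probes on the same array (grey diamonds). The members spread most widely on replicate 3, with a standard deviation of 1.55 and a median of -0.25, while their medians on replicates 1 and 2 lay at 0.029 and 0.023.

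No member differed from the pool past the threshold. In limma, 0 of 44 members had an adjusted p under 0.05, against 0% of all 4958 probes, and the smallest adjusted p among the members was 0.921. At an unadjusted p under 0.05 there was 1 member, Axin1, or 2.27% of the members, against 1.77% of all probes. Split by sign, 0 of the 44 members lay under it with a positive estimate, against 1.07% of all probes. Of the members 21 had a positive and 23 a negative estimate, so that 47.7% lay above 0, against 43.3% of all probes. Their median estimate was -0.031, against -0.033 over all probes, and 41 of the 44 lay within 0.5 of 0. The exceptions were Axin1, Tcf7l2 and Acvr2b.

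With replicates 1 to 3 turned, again 0 members passed in limma, and 0 lay under an unadjusted p of 0.05, against 4.6% of all probes. The median estimate was then 0.056, against 0.0155 over all probes. Of the 44 members 22 changed sign, and the matching share of all probes was not counted. Without replicates 3 and 4, 0 of 41 members passed, against 0.0212% of all probes. The sign changed in 22 of the 41, a share that was not counted over all probes either. In the fit without these arrays, 10 of the 41 lay under an unadjusted p of 0.05, or 24.4%, against 13.6% of all probes. Of these 10, Smad5, Fzd8, Bmp1, Gdf5, Axin2 and Ctnnb1 had positive estimates, from 0.20 to 0.26, and Tcf7l1, Smad2, Bmpr2 and Axin1 negative ones, from -0.42 to -0.20. The share above 0 was 68.3% among the members, against 62.6% of all probes. With each array weighted by its precision, 0 of 44 members passed, against 0.0403% of all probes, and 7 of 44, or 15.9%, lay under an unadjusted p of 0.05, against 12.1% of all probes. In that fit the dye term passed in 0 members, against 0.625% of all probes, and lay under an unadjusted p of 0.05 in 13 of 44, or 29.5%, against 27.3% of all probes.

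**Figure D2:**
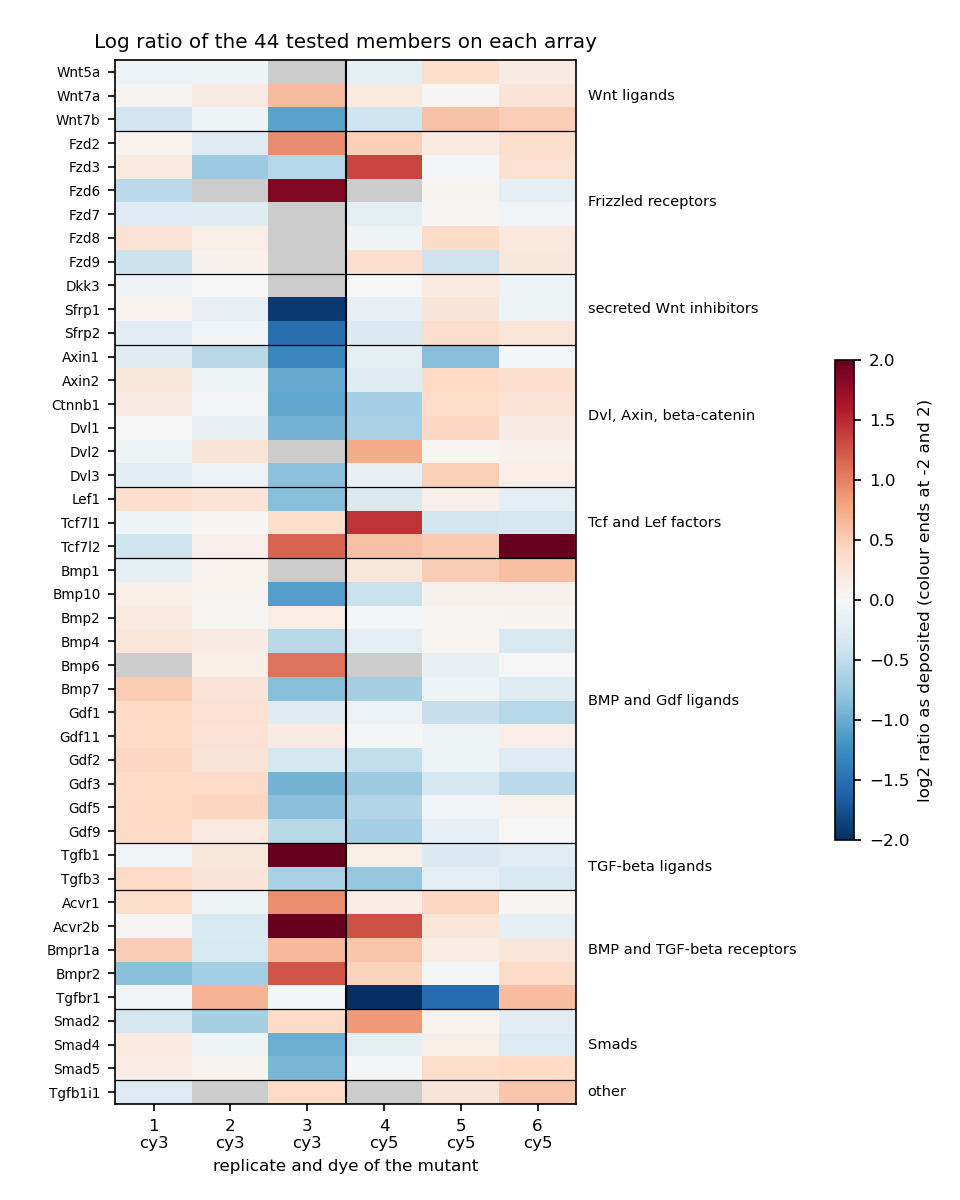
Log2 ratio as deposited of the 44 tested members (down the page, by role) on the 6 arrays (across), with red for positive, blue for negative and grey for no value. Replicate 3 holds the deepest colours. Most BMP and Gdf ligands are red on replicates 1 and 2 and blue on replicates 3 and 4. Among all members with complete values 32.4% had these signs, against 33.1% of all such probes. Of the members with complete values and these signs, only Tgfb3, Lef1 and Smad5 were not BMP or Gdf ligands.

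**Figure D3:**
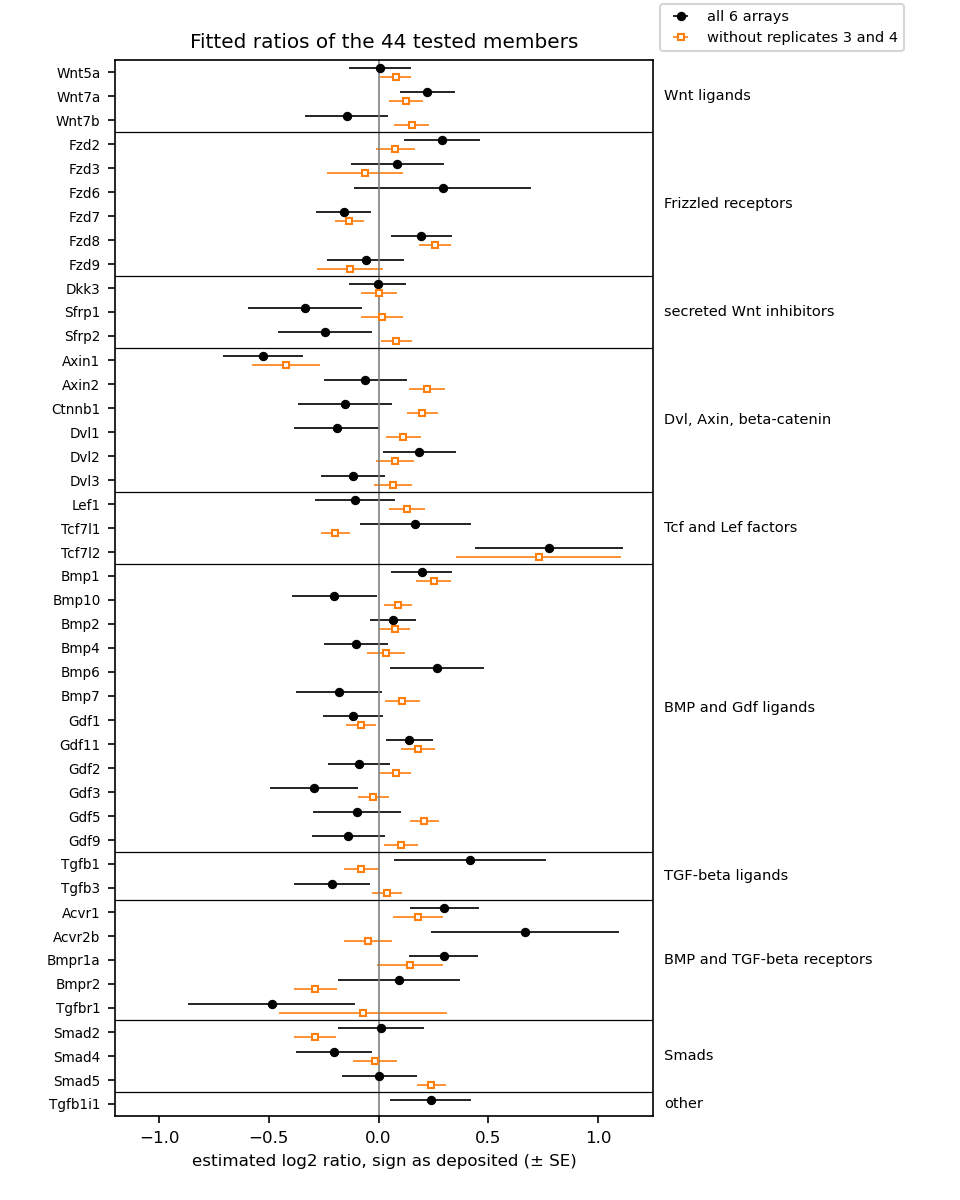
Estimated log2 ratio ± SE of the 44 tested members over all 6 arrays (black circles) and without replicates 3 and 4 (orange squares, 41 members), grouped by role. Axin1 lies below 0 and Tcf7l2 above 0 in both, while Acvr2b lies at 0.67 over all arrays and at -0.050 without these 2 arrays.

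Upstream sequence was read for the genes whose values the description turns on, from the RefSeq promoter table of build GRCm38.p6, which matched 49 of the 72 members. The sequences below are the 250 bases before the first listed start of Wnt7a, which had 1 sign on all arrays, of Tcf7l2, which had the largest estimate, and of Bmp4 and Lef1, which shared the array profile of Gdf3 described further on. Capitals mark GC boxes (GGGCGG on either strand, overlapping matches included). A GC box stood in this window in 79.6% of the 49 members, in 59.1% of 3542 genes tested on the arrays and in 32.9% of all 27025 genes of the table. The 49 include members that were not tested on the arrays, such as Dkk1 and Wnt11, so these sets are unlike. Differences between the shares were not tested. Of the sites bound by Tcf and Lef factors, the forms CTTTGAA and CTTTGAT were searched on both strands, and other forms were not. Neither was found in these 4 windows. CTTTGAA or CTTTGAT was found in 4.08% of the members, namely Dkk1 and Wnt11, in 5.08% of the tested genes and in 7.67% of all genes of the table.
Wnt7a, chr6:91411354-91411603, minus strand: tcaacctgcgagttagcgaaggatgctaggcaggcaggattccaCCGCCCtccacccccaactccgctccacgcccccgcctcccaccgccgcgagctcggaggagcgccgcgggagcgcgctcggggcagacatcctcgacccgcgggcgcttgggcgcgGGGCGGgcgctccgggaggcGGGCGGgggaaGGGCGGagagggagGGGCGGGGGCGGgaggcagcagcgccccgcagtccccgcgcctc
Tcf7l2, chr19:55741560-55741809, plus strand: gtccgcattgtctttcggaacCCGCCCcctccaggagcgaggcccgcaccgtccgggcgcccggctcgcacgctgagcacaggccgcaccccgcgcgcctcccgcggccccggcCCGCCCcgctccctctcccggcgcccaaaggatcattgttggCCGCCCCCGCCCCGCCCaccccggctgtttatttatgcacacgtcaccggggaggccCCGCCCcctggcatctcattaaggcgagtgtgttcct
Bmp4, chr14:46390670-46390919, minus strand: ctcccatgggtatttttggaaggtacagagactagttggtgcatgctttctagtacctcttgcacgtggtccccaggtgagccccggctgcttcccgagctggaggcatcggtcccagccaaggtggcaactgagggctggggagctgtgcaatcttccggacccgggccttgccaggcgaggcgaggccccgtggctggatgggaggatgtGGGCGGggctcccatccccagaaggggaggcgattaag
Lef1, chr3:131110047-131110296, plus strand: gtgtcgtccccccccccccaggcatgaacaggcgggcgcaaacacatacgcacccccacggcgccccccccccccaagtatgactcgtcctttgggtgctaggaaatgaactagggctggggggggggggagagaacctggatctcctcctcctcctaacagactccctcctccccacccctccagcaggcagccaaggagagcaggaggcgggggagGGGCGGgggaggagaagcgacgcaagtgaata
The windows of Wnt7a and Tcf7l2 held 6 GC boxes each and those of Bmp4 and Lef1 held 1 each. The share of G and C was 77.6% for Wnt7a, 72.8% for Tcf7l2, 63.2% for Bmp4 and 66.4% for Lef1.

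Wnt ligands were sparsely measured, with 3 of 12 tested. Wnt7a, a ligand made by neural cells and known for its part in the growth of brain vessels, had 0.049, 0.16 and 0.64 on replicates 1 to 3 and 0.20, 0.023 and 0.27 on replicates 4 to 6. It was positive on 6 of 6 arrays, and its estimate was 0.22 ± 0.13 (SE, n = 6; limma adjusted p = 0.921), or 0.13 without replicates 3 and 4 and -0.059 with replicates 1 to 3 turned. Only Wnt7a and Axin1 kept 1 sign on all arrays with a value, 4.55% of the tested members, against 2.72% of all probes. Wnt7b, its close relative, had -0.38, -0.087 and -1.07 on replicates 1 to 3 and -0.40, 0.58 and 0.49 on replicates 4 to 6. Its arrays fell on both sides of 0, negative on replicates 1 to 4 and positive on replicates 5 and 6, and the estimate of -0.14 ± 0.19 (SE, n = 6) became 0.15 without replicates 3 and 4.

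Wnt5a, a ligand that often acts without beta-catenin, lay between -0.18 and 0.35 on 5 arrays and had an estimate of 0.0064 ± 0.14 (SE, n = 5), or 0.078 without replicates 3 and 4. Wnt11, another ligand of that kind, had -0.71, -0.28 and 1.12 on replicates 2, 5 and 6. Wnt8b, a ligand of the cortical hem, had -1.0, -0.18 and -0.83 on the same 3 arrays. These values were too few to test, and of the pair only Wnt8b kept 1 sign. Wnt5b had -0.26, -0.21 and 0.22 on replicates 1, 5 and 6. Wnt3a, the ligand of the hem that the growth of the hippocampus depends on, was listed on replicate 1 alone, at -0.22, as was Wnt8a at -0.079. Wnt1, Wnt3, Wnt4 and Wnt10b had no value.

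Frizzled receptors had 6 of 8 members tested, 4 with positive and 2 with negative estimates, from -0.16 to 0.29. Fzd2 had 0.065, -0.26 and 0.94 on replicates 1 to 3 and 0.48, 0.16 and 0.35 on replicates 4 to 6. It was negative on replicate 2 alone, with an estimate of 0.29 ± 0.17 (SE, n = 6; limma adjusted p = 0.921). It stood at 0.077 without replicates 3 and 4, which held its highest values. Fzd8, a receptor gene of the cortical ventricular zone, had 0.29 and 0.14 on replicates 1 and 2, with -0.068, 0.38 and 0.22 on replicates 4 to 6. Its estimate was 0.20 ± 0.14 (SE, n = 5), or 0.26 without replicates 3 and 4. Fzd7 had -0.25 and -0.25 on replicates 1 and 2, with -0.18, 0.028 and -0.059 on replicates 4 to 6, with an estimate of -0.16 ± 0.13 (SE, n = 5), or -0.13 without replicates 3 and 4.

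Both Fzd7 and Fzd8 lacked a value on replicate 3, as did 7 of the 44 tested members, or 15.9%, against 15% of all probes. Fzd3, which guides axon tracts of the forebrain, had 0.19, -0.73 and -0.57 on replicates 1 to 3 and 1.33, -0.016 and 0.30 on replicates 4 to 6, with an estimate of 0.086 ± 0.21 (SE, n = 6), or -0.063 without replicates 3 and 4. With replicates 1 to 3 turned it stood at 0.46, with an unadjusted p of 0.0682 in limma, the smallest of the members under that reading. Fzd6 and Fzd9 had estimates of 0.29 ± 0.40 (SE, n = 4) and -0.059 ± 0.17 (SE, n = 5), and Fzd9 stood at -0.13 without replicates 3 and 4. Fzd4 and Fzd5 had no value.

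Secreted Wnt inhibitors had 3 of 8 members tested, and both Sfrp estimates rested on replicate 3. Sfrp1, a decoy that binds Wnt and is made by cortical progenitors, had 0.073, -0.16 and -1.92 on replicates 1 to 3 and -0.16, 0.25 and -0.10 on replicates 4 to 6. Sfrp2 had -0.22, -0.051 and -1.50 on replicates 1 to 3 and -0.28, 0.35 and 0.24 on replicates 4 to 6. Apart from replicate 3 both genes lay within 0.35 of 0. Their estimates were -0.34 ± 0.26 and -0.24 ± 0.21 (SE, n = 6 each), and 0.016 and 0.081 without replicates 3 and 4. Dkk3, a divergent Dickkopf protein, lay between -0.10 and 0.20 on 5 arrays, with an estimate of -0.0039 ± 0.13 (SE, n = 5).

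Sfrp5 had the largest value of any member on replicates 1 and 6, with -1.69 on replicate 1, -0.023 on replicate 5 and 3.80 on replicate 6. These values were of opposite sign and too few to test. Sfrp4, Dkk1, Dkk2 and Dkkl1 had no value.

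Of the members that act in the cytoplasm in the Wnt pathway, 6 of 6 were tested, 1 with a positive and 5 with negative estimates. Axin1, the scaffold of the complex that destroys beta-catenin, had -0.24, -0.56 and -1.31 on replicates 1 to 3 and -0.17, -0.85 and -0.037 on replicates 4 to 6. It was negative on 6 of 6 arrays, and the value on replicate 6 was near 0. Its estimate was -0.53 ± 0.18 (SE, n = 6; limma unadjusted p = 0.0226, adjusted p = 0.921), the lowest among the members. Without replicates 3 and 4 it was -0.42 ± 0.16 (SE, n = 4; limma unadjusted p = 0.0475, adjusted p = 0.361). With replicates 1 to 3 turned it was 0.18. The 3 probes whose values over the 6 arrays were most like those of Axin1 were Prmt5 and Gfpt2, with Pearson's r of 0.98 and 0.97, and an unnamed probe at 0.95. They were the highest of 3762 probes compared, of which 8 exceeded 0.9, and all share the same 6 arrays.

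Axin2, a paralogue of Axin1 that is itself a target of the pathway, had 0.23, -0.085 and -1.0 on replicates 1 to 3 and -0.25, 0.41 and 0.33 on replicates 4 to 6. Ctnnb1, the beta-catenin gene, had 0.17, -0.016 and -1.04 on replicates 1 to 3 and -0.68, 0.37 and 0.28 on replicates 4 to 6. Dvl1 had 0.014, -0.14 and -0.95 on replicates 1 to 3 and -0.65, 0.42 and 0.16 on replicates 4 to 6. In these 3 genes replicates 3 and 4 were the lowest arrays, and replicates 5 and 6 were positive. Their estimates of -0.061 ± 0.19, -0.15 ± 0.21 and -0.19 ± 0.19 (SE, n = 6 each) became 0.22, 0.20 and 0.11 without replicates 3 and 4. Dvl3 had an estimate of -0.12 ± 0.15 (SE, n = 6), or 0.066 without them. Dvl2 had 0.19 ± 0.17 (SE, n = 5), or 0.073 without them, with its highest value, 0.74, on replicate 4 and none on replicate 3.

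Tcf7l2, a nuclear partner of beta-catenin that in the brain is known as a marker of the thalamus, had the largest estimate of the members. Its values were -0.41, 0.095 and 1.16 on replicates 1 to 3 and 0.59, 0.52 and 2.71 on replicates 4 to 6. It was positive on 5 of 6 arrays and highest on replicate 6. The estimate was 0.78 ± 0.34 (SE, n = 6; limma unadjusted p = 0.0532, adjusted p = 0.921). It was 0.73 ± 0.38 (SE, n = 4; limma adjusted p = 0.442) without replicates 3 and 4 and 0.49 with replicates 1 to 3 turned, and without replicate 6 it was 0.42. The probes most like it over the 6 arrays were Ulk2 at a Pearson's r of 0.99, Zbtb14 at 0.98 and Dhcr7 at 0.96, among 15 of 3762 above 0.9.

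Markers of the diencephalon were mixed on replicate 6, where Tcf7l2 was highest. On that array 4 of the 6 listed markers with a value were positive, as were 4 of 6 on replicate 5. Lhx2 stood at 3.06, Foxp2 at 1.20 and Gbx2 at 1.05 on replicate 6, while Zic1 stood at 0.065, Lhx9 at -0.019 and Irx1 at -0.21. The median of the list was 0.56 there, against medians of -0.55 to 0.25 on the other arrays. Lhx2 is also a gene of the cortex itself, and it lay at -4.81 on replicate 3. Markers of the hem and choroid plexus had a median of 0.066 on replicate 6, with 4 of 6 positive. The part of these markers in the Tcf7l2 and Sfrp5 values was not tested.

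Tcf7l1, a mainly repressing factor of the same family, had -0.086, 0.023 and 0.35 on replicates 1 to 3 and 1.44, -0.37 and -0.35 on replicates 4 to 6. Its estimate of 0.17 ± 0.25 (SE, n = 6) rested on replicate 4 and was -0.13 without it. Without replicates 3 and 4 it was -0.20 ± 0.066 (SE, n = 4; limma adjusted p = 0.338). Lef1 had 0.34, 0.27 and -0.86 on replicates 1 to 3 and -0.30, 0.098 and -0.19 on replicates 4 to 6. Its estimate was -0.11 ± 0.18 (SE, n = 6), or 0.13 without replicates 3 and 4.

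**Figure D4:**
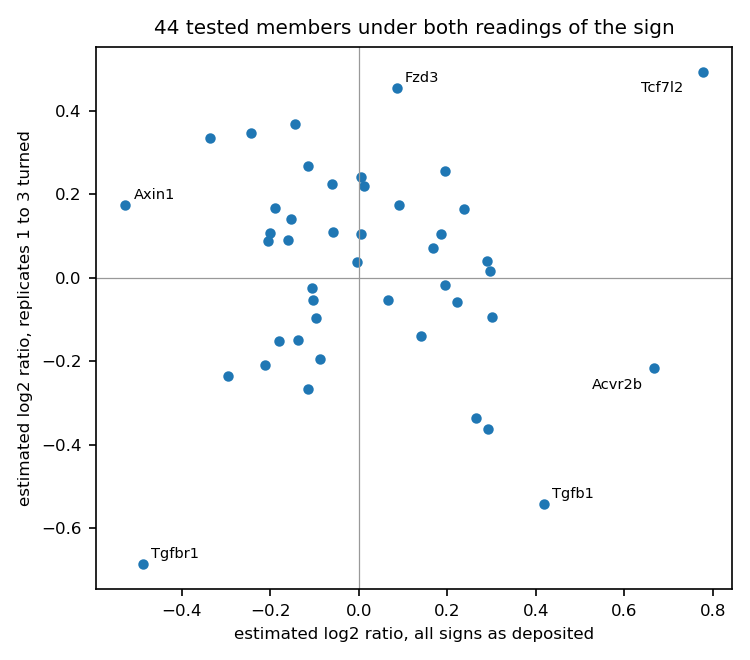
Estimated log2 ratio of each of the 44 tested members with all signs as deposited (horizontal axis) and with replicates 1 to 3 turned (vertical axis). Tcf7l2 is positive (0.78 and 0.49) and Tgfbr1 negative (-0.49 and -0.69) in both readings, while Axin1, Acvr2b and Tgfb1 change sign.

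BMP and Gdf ligands had 12 of 15 members tested, 4 with positive and 8 with negative estimates. Their median was -0.10 over all arrays and 0.087 without replicates 3 and 4, beside -0.0328 and 0.0443 over all probes. Gdf3, a ligand of the early embryo, had 0.38, 0.39 and -0.95 on replicates 1 to 3 and -0.72, -0.33 and -0.53 on replicates 4 to 6. It was positive on replicates 1 and 2 and negative on the other 4, and its estimate was -0.29 ± 0.20 (SE, n = 6; limma adjusted p = 0.921). It was -0.024 without replicates 3 and 4.

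A like array profile recurred among other ligands, both of the hem and best known from other tissues, and its cause was not tested. Gdf9, a growth factor of the oocyte, had 0.40, 0.19 and -0.56 on replicates 1 to 3 and -0.68, -0.17 and -0.010 on replicates 4 to 6. Gdf2, also called BMP9 and made by the liver, had 0.41, 0.26 and -0.35 on replicates 1 to 3 and -0.49, -0.11 and -0.25 on replicates 4 to 6. Gdf5, a ligand of developing joints, had 0.39, 0.44 and -0.83 on replicates 1 to 3 and -0.59, -0.056 and 0.066 on replicates 4 to 6. All 3 were positive on replicates 1 and 2 and negative on replicates 3 and 4. Bmp7, a ligand of the hem, choroid plexus and meninges, had 0.50, 0.26 and -0.85 on replicates 1 to 3 and -0.66, -0.080 and -0.25 on replicates 4 to 6.

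Gdf3 was picked out for this profile after its values were seen. Over the 6 arrays its Pearson's r was above 0.9 with 6 of the 33 other members measured on all arrays, namely Bmp7, Tgfb3, Gdf2, Gdf5, Bmp4 and Lef1, with r from 0.91 to 0.97. That is 18.2% of these members, and 417 of 3762 probes of the whole table, or 11.1%, exceeded 0.9 too. By sign, 11 of 34 members with complete values were positive on replicates 1 and 2 and negative on replicates 3 and 4. Their share was 32.4%, against 33.1% of all such probes. All of these 11 except Tgfb3, Lef1 and Smad5 were BMP or Gdf ligands, which was seen afterwards and was not tested. The opposite pattern occurred in 2 members, or 5.88%, against 9.43% of such probes.

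**Figure D5:**
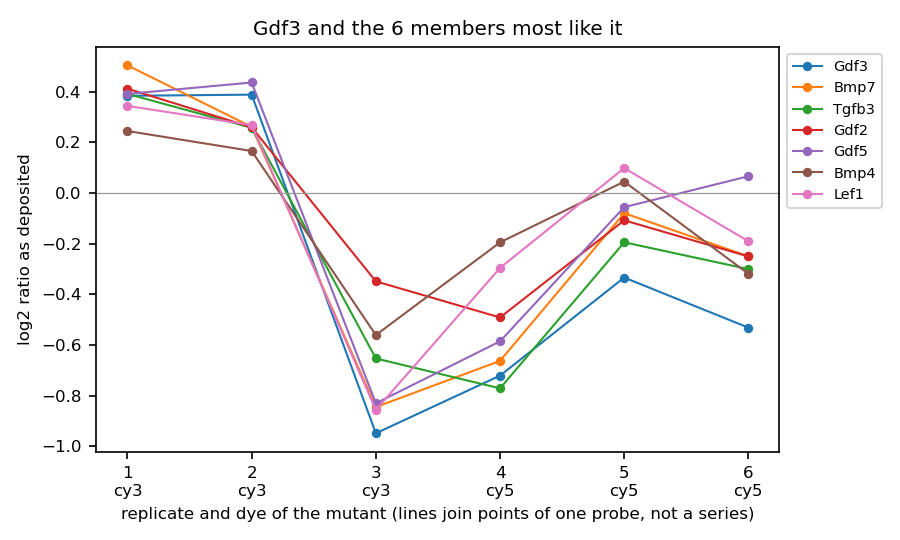
Log2 ratio as deposited of Gdf3 and the 6 members whose values correlated with it above 0.9, on the 6 arrays. All 7 lie above 0 on replicates 1 and 2 and below 0 on replicates 3 and 4.

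Gdf1, known for its part in left-right patterning, had 0.40, 0.30 and -0.25 on replicates 1 to 3 and -0.12, -0.46 and -0.57 on replicates 4 to 6. Its estimate was -0.11 ± 0.14 (SE, n = 6), or -0.080 without replicates 3 and 4. In the fit without these arrays the dye term of Gdf1 was 0.43 ± 0.067 (SE, n = 4; limma unadjusted p = 0.00185, adjusted p = 0.146), since replicates 1 and 2 were positive and replicates 5 and 6 negative. The dye term lay under an unadjusted p of 0.05 in 11 of 41 members in that fit, or 26.8%, against 23.4% of all probes, and passed in 0. Gdf11, known to restrain neurogenesis in the olfactory epithelium and retina, had 0.39, 0.29 and 0.17 on replicates 1 to 3 and -0.038, -0.100 and 0.14 on replicates 4 to 6. Its cy3 arrays all lay above its cy5 arrays, and its estimate was 0.14 ± 0.11 (SE, n = 6), or 0.18 without replicates 3 and 4 and -0.14 with replicates 1 to 3 turned. In 4 of 44 members, Gdf11, Bmp1, Bmp6 and Fzd7, the cy3 and cy5 arrays did not overlap. These were 9.09% of the members, against 15.9% of all probes.

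Bmp4, a ligand of the hem, had 0.24, 0.17 and -0.56 on replicates 1 to 3 and -0.20, 0.045 and -0.32 on replicates 4 to 6, with an estimate of -0.10 ± 0.15 (SE, n = 6), or 0.034 without replicates 3 and 4. Bmp2 was the steadiest ligand, between -0.021 and 0.20 on 6 arrays, with an estimate of 0.067 ± 0.10 (SE, n = 6), or 0.073 without replicates 3 and 4. Bmp10, a ligand of the heart, had -1.10 and -0.45 on replicates 3 and 4 and lay between 0.055 and 0.12 on the other 4. On those 4 arrays both Bmp2 and Bmp10 lay within 0.20 of 0. Bmp6 had an estimate of 0.27 ± 0.21 (SE, n = 4), with 1.09 on replicate 3.

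Bmp1, which carries the name but is a protease that trims procollagens and cleaves chordin, had -0.19 and 0.073 on replicates 1 and 2, with 0.23, 0.51 and 0.61 on replicates 4 to 6. The cy5 arrays lay above the cy3 arrays, and the estimate was 0.20 ± 0.14 (SE, n = 5), or 0.25 ± 0.078 (SE, n = 4; limma adjusted p = 0.318) without replicates 3 and 4. Bmp8b had -1.35 on replicate 2 and 3.14 on replicate 3 and was not tested. Bmp5 and Bmp8a had no value.

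The inhibitors of BMP ligands were hardly measured. Chrd, the chordin gene, had -0.36, 0.58 and 1.56 on replicates 1, 5 and 6, and Nog, the noggin gene, had 2.16 on replicate 3 alone. Neither could be tested.

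TGF-beta ligands had both members tested, with estimates on opposite sides of 0. Tgfb1 had -0.056, 0.23 and 2.71 on replicates 1 to 3 and 0.12, -0.29 and -0.21 on replicates 4 to 6. Replicate 3 stood far above the other 5, and the estimate of 0.42 ± 0.35 (SE, n = 6) was -0.019 without it. Tgfb3 had 0.39, 0.26 and -0.65 on replicates 1 to 3 and -0.77, -0.20 and -0.30 on replicates 4 to 6, with an estimate of -0.21 ± 0.17 (SE, n = 6), or 0.038 without replicates 3 and 4.

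Tgfb1 is strongly expressed by microglia and blood cells, and C1qb, a microglial gene, stood at 5.06 on the same replicate 3. On that array 2 of the 4 microglial markers with a value were positive, C1qb and Itgam, the latter at 1.17. Aif1 stood at -0.50 and C1qc at -1.14. The median of the list was 0.34 there, against medians of -0.13 to 1.24 on the other arrays. C1qb also stood at 2.41 on replicate 4 and 1.33 on replicate 5, where Tgfb1 had 0.12 and -0.29. On replicates 1, 2 and 6 C1qb lay between -0.57 and 0.099. The part of these cells in the Tgfb1 value was not tested.

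Receptors for BMP, activin and TGF-beta had 5 of 8 members tested, 4 with positive and 1 with a negative estimate. Acvr1, a type I receptor for BMP ligands, had 0.35, -0.090 and 0.92 on replicates 1 to 3 and 0.16, 0.42 and 0.044 on replicates 4 to 6. Bmpr1a, another receptor of that type, had 0.50, -0.32 and 0.66 on replicates 1 to 3 and 0.55, 0.15 and 0.24 on replicates 4 to 6. Both were positive on 5 of 6 arrays and negative on replicate 2. Their estimates were 0.30 ± 0.16 each (SE, n = 6; limma adjusted p = 0.921 for each), or 0.18 and 0.14 without replicates 3 and 4. With replicates 1 to 3 turned they were -0.094 and 0.016. Most like Acvr1 over the 6 arrays were Pkmyt1 at a Pearson's r of 0.97, and Kif20a and Id3 at 0.96, among 13 of 3762 probes above 0.9.

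Acvr2b, a type II activin receptor, had 0.029, -0.30 and 2.93 on replicates 1 to 3 and 1.28, 0.25 and -0.18 on replicates 4 to 6. The estimate of Acvr2b was 0.67 ± 0.43 (SE, n = 6), with its highest values on replicates 3 and 4, and was -0.050 ± 0.11 (SE, n = 4) without them. Bmpr2, the type II BMP receptor, had -0.84, -0.67 and 1.26 on replicates 1 to 3 and 0.44, -0.035 and 0.39 on replicates 4 to 6. The array profile of Bmpr2 ran opposite to that of Gdf3, at a Pearson's r of -0.97 over the 6 arrays. Its estimate was 0.092 ± 0.28 (SE, n = 6), or -0.29 ± 0.098 (SE, n = 4; limma adjusted p = 0.34) without replicates 3 and 4.

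Tgfbr1, the type I receptor for TGF-beta, was the exception in sign, with -0.056, 0.69 and -0.029 on replicates 1 to 3 and -2.60, -1.54 and 0.62 on replicates 4 to 6. It had the largest values in size of any member on replicates 4 and 5, yet replicates 2 and 6 were positive. The estimate was -0.49 ± 0.38 (SE, n = 6); it ranged from -0.94 to -0.13 when single arrays were left out, and was -0.072 when replicates 3 and 4 both were. Tgfbr3, a co-receptor, had 4.53 on replicate 3 alone, the largest value of any member on that array. Bmpr1b had 0.18 on replicate 1 alone, and Tgfbr2 had no value.

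Smads had 3 of 6 members tested. Smad5, which carries the BMP signal, had 0.15, 0.056 and -0.92 on replicates 1 to 3 and -0.019, 0.37 and 0.39 on replicates 4 to 6. Its estimate was 0.0044 ± 0.17 (SE, n = 6) over all arrays. It was 0.24 ± 0.065 (SE, n = 4; limma unadjusted p = 0.0163, adjusted p = 0.301) without replicates 3 and 4, with 4 of 4 arrays positive. Among the members this was the smallest unadjusted p for the mutant effect in that fit, with signs as deposited. The dye term of Gdf1 had a smaller one in limma, 0.00185. Smad2, which carries the TGF-beta and activin signal, had -0.34, -0.67 and 0.38 on replicates 1 to 3 and 0.85, 0.074 and -0.23 on replicates 4 to 6. Its estimate was 0.011 ± 0.20 (SE, n = 6), or -0.29 ± 0.097 (SE, n = 4; limma adjusted p = 0.338) without replicates 3 and 4.

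Smad4, the partner shared by both branches, had 0.19, -0.085 and -0.98 on replicates 1 to 3 and -0.18, 0.11 and -0.28 on replicates 4 to 6. Its estimate was -0.20 ± 0.17 (SE, n = 6), or -0.015 without replicates 3 and 4. Smad1 had 4.21 on replicate 3 alone. Smad6, an inhibitory Smad, had 0.51 and 0.55 on replicates 5 and 6, and Smad9 had no value. A pair of further members are neither ligands, receptors nor Smads. Tgfb1i1, a focal adhesion protein, had an estimate of 0.24 ± 0.18 (SE, n = 4). Tgfbi, a matrix protein, had 0.68 and 0.64 on replicates 5 and 6.

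Genes of the same pathways outside the members, in 4 lists, gave 0 passing probes in limma, and 1, described below, under an unadjusted p of 0.05. Among all probes 1.77% lay under it, and the number tested in each list is given below. Of 23 tested probes for other Wnt components 6 had positive and 17 negative estimates, while 43.3% of all probes had positive ones. The median of these components was -0.10, beside -0.033 over all probes. Without replicates 3 and 4 it was 0.12, beside 0.0443 over all probes. Csnk2a1, a kinase that acts on the pathway, was negative on 6 of 6 arrays, at -0.26 ± 0.12 (SE, n = 6; limma adjusted p = 0.921), or -0.30 without replicates 3 and 4. Tle4, a Groucho-type corepressor, stood at -0.17, and Tle5 at 0.18. Of 10 tested Wnt targets 5 were positive, with Neurog1, a proneural factor, at 0.28 ± 0.15 (SE, n = 4), Id2 at -0.36 and Emx2 at 0.17.

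Of 18 tested BMP and TGF-beta components 9 were positive and 9 negative, and 1 lay under an unadjusted p of 0.05. That was Inhbb, an activin subunit, at 0.72 ± 0.29 (SE, n = 5; limma unadjusted p = 0.046, adjusted p = 0.921), positive on 5 of 5 arrays, highest on replicate 1 at 2.09, and at 0.77 without replicates 3 and 4. Twsg1, which modulates BMP binding, stood at 0.34, and Skil, a Smad corepressor, at 0.29. Among 12 tested BMP and TGF-beta targets 8 were positive, with Fn1, the fibronectin gene, at 0.34 ± 0.15 (SE, n = 6), Msx1 at 0.66 ± 0.29 (SE, n = 5) and Id2 as above.

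Markers of the tissue and its neighbours were read beside these values, and 0 of them passed in limma. At an unadjusted p under 0.05 there was 1 of 10 tested probes for neocortex. There was also 1 of 9 each for meninges and vessels and for the ganglionic eminence, and 0 in the other lists. Among all probes 1.77% lay under that value. Medians of the 10 neocortex markers lay between -0.59 on replicate 3 and 0.24 on replicate 2. Medians of the hem and choroid plexus markers, the neighbouring tissue richest in Wnt and BMP ligands, lay between 0.045 and 0.26 on all arrays, though Ttr, a choroid plexus gene, ranged from -2.39 on replicate 4 to 0.81 on replicate 5. Medians of the meninges and vessel markers lay at -0.41, -0.20 and -0.41 on replicates 1 to 3 and at 0.031, 0.31 and 0.34 on replicates 4 to 6, while Dcn, the decorin gene, had -2.08 and -1.60 on replicates 1 and 2, with 1.14, -1.50 and -1.82 on replicates 4 to 6. Medians of the ganglionic eminence markers ran from -0.43 on replicate 1 to 0.58 on replicate 3. On replicate 4, 6 of 9 probes of that list were positive, from -0.95 for Dlx1 to 2.34 for 1 of the probes of Lhx6, whose other probe had 0.88. Medians of the erythroid markers ran from -0.13 to 0.24. The part of these tissues in the members' values was not tested. As every value is a ratio, the files do not show how strongly a marker was present.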

How the data were processed

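The deposited table holds 1 log ratio per probe and array, made by the authors and read here as log2. The sources used here give neither its log base nor its direction, background correction or normalization. Array means lay within 0.01 of 0, and between 4396 and 5678 probes had a value. Slide and scan batches are not known. The platform annotation gave 1 symbol for 6269 probes, several for 6 and none for 581, and all 72 members matched RefSeq by gene identifier. The targeted gene is not reported here.

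A linear model in limma 3.58.1 (R 4.3.3) held the mutant effect and a term for the dye that labelled it. It was fitted to all 4958 probes that had 2 or more values for each dye, with moderated two-sided tests, Benjamini-Hochberg adjustment over those probes and a threshold of 0.05. The dye term is the same test as the mutant effect with replicates 1 to 3 turned. The fit was tested on simulated data. Lists were described by counts and medians alone. The members, roles and lists were chosen with earlier results of these data known. Named by rule are up to 3 members of each role with the smallest p, those with 1 sign on all arrays, and the largest in size on each array; other members were named after their values were seen. The alternatives were the turned sign, no dye term, median centring with or without a common scale, probes with all 6 values, robust moderation, weighted arrays (gene by gene, because the other algorithm did not converge), averaging per gene, a threshold of 0.1, a narrower reading of the names and leaving out replicates. The number of arrays limits the precision.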

Additional observations from a re-analysis of the deposited data

Results flagged for a closer look

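In 4 of the 44 tested members 1 array lay far from the others by Dixon's criterion, and all 4 times it was replicate 3. These were 9.09% of the tested members, against 9.72% of all tested probes with such an array, and 6.72% of all tested probes where it was replicate 3. The criterion is set to flag about 1 of 20 groups of independent values with equal spread, which these arrays did not have. Tgfb1 stood at 2.71 on replicate 3, with the next highest array at 0.23, and Sfrp1 at -1.92, with the next lowest at -0.16. Sfrp2 stood at -1.50 on replicate 3, with the next lowest at -0.28, and Smad5 at -0.92, with the next lowest at -0.019. Replicate 3 was also the widest array over all probes.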

How the results depend on the processing

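No setting gave a member past the threshold, whether arrays were centred, scaled, weighted, turned or left out. The count under an unadjusted p of 0.05 was 0 with replicates 1 to 3 turned, 2 over probes with all 6 values, 7 with array weights and 10 without replicates 3 and 4. The members' median estimate was 0.056, 0.050 and 0.077 when turned, weighted and without replicates 3 and 4. The matching medians over all probes were 0.0155, 0.0261 and 0.0443. Over all probes, 2 passed with array weights and 1 without replicates 3 and 4. Array weights and leaving out replicates 3 and 4 were chosen knowing earlier results. Leaving out 1 array at a time gave medians from -0.18 to 0.024, 13 to 23 positive members and 1 to 3 members under an unadjusted p of 0.05. For these fits and the fit over probes with all 6 values, the matching shares of all probes were not counted. Their counts therefore cannot be read as particular to the members. For the 44 tested members and the 11 other pathway genes with an estimate in the text, 667 values under other settings kept their sign and 104 changed it, and the cause was not tested. Part of the 667 could not change sign. Robust moderation, averaging per gene and keeping only probes with all 6 values left these estimates as they were. So did dropping the dye term for probes with all 6 values, and leaving out an array on which a probe had no value. The 667 therefore do not measure how stable the signs were. With replicates 1 to 3 turned, Acvr1 was -0.094, Acvr2b -0.22, Axin1 0.18, Axin2 0.22, Bmp10 0.11, Bmp2 -0.052, Bmp6 -0.34, Ctnnb1 0.14, Dkk3 0.038, Dvl1 0.17, Dvl3 0.27, Emx2 -0.037, Fzd6 -0.36, Fzd7 0.091, Fzd8 -0.018, Fzd9 0.11, Gdf11 -0.14, Inhbb -0.28, Sfrp1 0.33, Sfrp2 0.35, Smad4 0.088, Tgfb1 -0.54, Wnt7a -0.059 and Wnt7b 0.37. Without replicates 3 and 4, Acvr2b was -0.050, Axin2 0.22, Bmp10 0.087, Bmp4 0.034, Bmp7 0.11, Bmpr2 -0.29, Ctnnb1 0.20, Dkk3 0.0028, Dvl1 0.11, Dvl3 0.066, Fzd3 -0.063, Gdf2 0.078, Gdf5 0.21, Gdf9 0.10, Lef1 0.13, Sfrp1 0.016, Sfrp2 0.081, Smad2 -0.29, Tcf7l1 -0.20, Tgfb1 -0.079, Tgfb3 0.038 and Wnt7b 0.15. With array weights, Acvr2b was -0.026, Axin2 0.17, Bmp10 0.054, Bmp7 0.056, Bmpr2 -0.23, Ctnnb1 0.14, Dvl1 0.047, Dvl3 0.030, Fzd3 -0.056, Fzd6 -0.28, Gdf2 0.043, Gdf5 0.19, Gdf9 0.072, Lef1 0.089, Sfrp2 0.053, Smad2 -0.29, Tcf7l1 -0.12, Tgfb1 -0.023, Tgfbr1 0.020 and Wnt7b 0.12. With centring and a common scale, Axin2 was 0.086, Bmpr2 -0.16, Ctnnb1 0.0078, Fzd6 -0.012, Gdf2 0.0031, Gdf5 0.081, Lef1 0.042, Smad2 -0.16 and Wnt5a -0.0097. Without the dye term, Dkk3 was 0.0037. Leaving out 1 array at a time turned Axin2 (-0.19 to 0.12), Bmp4 (-0.18 to 0.024), Bmp7 (-0.31 to 0.025), Bmpr2 (-0.24 to 0.28), Ctnnb1 (-0.27 to 0.033), Dkk3 (-0.045 to 0.031), Fzd3 (-0.11 to 0.22), Fzd9 (-0.13 to 0.057), Gdf2 (-0.16 to 0.026), Gdf5 (-0.21 to 0.11), Gdf9 (-0.24 to 0.0045), Lef1 (-0.21 to 0.088), Smad2 (-0.14 to 0.13), Smad5 (-0.092 to 0.17), Tcf7l1 (-0.13 to 0.32), Tgfb1 (-0.019 to 0.67), Wnt5a (-0.053 to 0.078) and Wnt7b (-0.25 to 0.011). Axin1 kept its sign there, from -0.64 to -0.38, as did Tcf7l2, from 0.42 to 0.97. No paired analysis was possible because all arrays compare a mutant with 1 shared pool. Signal over background was not used here, so its limit on these ratios is not known.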
